A study of Homo sapiens with 9 samples.

Results

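The aminoacyl-tRNA synthetases, the enzymes that charge each transfer RNA with its amino acid, were examined in MV4-11 cells treated with 2 agents directed at the kinase Aurora A. The genes were listed by symbol, as the cytosolic and the mitochondrial synthetases, with earlier results of these data known. Of 36 genes so listed, 34 were found among the 13410 genes of the authors' deposited table, 20 cytosolic and 14 mitochondrial. AARS2 and MARS2 were not analysed here. MV4-11 is an established human acute myeloid leukaemia line of myelomonocytic type. The cells were treated for 18 h with alisertib at 1000 nM, which blocks the catalytic activity of Aurora A, with JB170 at 100 nM, the Aurora A degrader named in the title of the series, or with the vehicle DMSO. Each of these 3 groups had 3 libraries of poly(A)-selected RNA. All cells were of the same line and carried no labelled genetic change. Nothing in the labels says whether the replicates came from separate cultures, so the spread behind each p-value may be technical.

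The table holds the authors' log2 fold change, p-value and adjusted p-value of each comparison with DMSO, and no value per library, so the depth is unknown and individual libraries cannot be shown. Its column A1000 was read as alisertib from the dose. Its columns A100 and MK match no group in the labels, and their values are set beside the others without a name for the agent. All 4 comparisons are with DMSO, per the file headers, so they are not independent of each other. Every log2 fold change below has the treated cells first and DMSO subtracted. This direction was inferred, and the JB170 column was read the opposite way from the others. Its sign relative to them rests on correlations across genes. A reversal of all 4 columns together was not examined, and would make every fall below a rise. The intervals are 95% intervals whose standard error was implied by the deposited fold changes and p-values. The line's own markers were present, with 9 of 10 myelomonocytic markers in the table and FLT3 at a mean log2 CPM of 9.88, although ITGAM and CD14 were low at 1.95 and 0.62. With alisertib 5 of these 9 markers lay below 0 and 4 above, at a median of -0.05. Only 2 of the 9 were called higher and none lower, beside 3.09% of all genes called higher and 2.83% lower. Named after their values were seen, they were CD68, a lysosomal protein of macrophages (log2 fold change 0.68 with alisertib, 0.31 with JB170, 0.49 in the column A100 and 0.33 in the column MK), and CSF1R, the receptor of the macrophage growth factor (0.69 with alisertib, 0.21 with JB170, 0.46 in the column A100 and 0.23 in the column MK), both also called in A100. In A100, 0.761% of all genes were called higher. The part of CD68 and CSF1R in the synthetase values was not tested. Of the markers of other cell types, 1 of 6 erythroid and megakaryocytic, 2 of 6 lymphoid and 3 of 7 epithelial and fibroblast genes were in the table, at a mean log2 CPM between -0.10 and 2.80.

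Each synthetase recognises 1 amino acid and its transfer RNAs, except EPRS, which joins the glutamyl and the prolyl enzyme in 1 protein. The cytosol and the mitochondria mostly use enzymes from separate genes, while GARS and KARS each make both forms. Several cytosolic enzymes sit together in the multisynthetase complex. Many cytosolic synthetase genes are known targets of ATF4, the transcription factor whose translation rises when amino acids are short or the endoplasmic reticulum is stressed. ATF4 pairs with C/EBP proteins at the C/EBP-ATF response element and activates genes for amino acid synthesis, uptake and tRNA charging.

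Transcripts of the cytosolic enzymes stood at higher levels than those of the mitochondrial ones. Per kilobase of merged exons, the mean log2 CPM of the cytosolic members had a median of 6.57, with a range of 3.48 for WARS to 7.57 for FARSA. The mitochondrial members had a median of 3.79, with a range of 2.45 for VARS2 to 6.21 for IARS2. The cytosolic members also had narrower errors. Their implied standard error of the alisertib log2 fold change had a median of 0.0794, against 0.124 for the mitochondrial members, so a change of a given size was easier to call in the cytosolic enzymes.

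With alisertib, 3 of the 34 synthetase transcripts fell at an adjusted p under 0.05, and none rose. MARS, which charges methionine, had a log2 fold change of -0.36 (interval -0.51 to -0.20), or 78.1% of the DMSO level, with an adjusted p of 0.000520 in the authors' deposited table. AARS, the alanyl enzyme, had -0.30 (interval -0.45 to -0.14), or 81.5% of the DMSO level, with an adjusted p of 0.00596 in the authors' deposited table. YARS, the tyrosyl enzyme, had -0.26 (interval -0.41 to -0.11), or 83.6% of the DMSO level, with an adjusted p of 0.0173 in the authors' deposited table. All of them are cytosolic. Of the 13410 genes, 2.83% were called lower and 3.09% higher, and among the 8125 genes within the members' range of mean log2 CPM, 3.99% were called lower. Whether 3 of 34 differs from these shares was not tested. At an unadjusted p under 0.05, 8 members were lower (AARS, CARS2, EARS2, GARS, MARS, NARS, TARS and YARS) and 2 were higher (HARS2 and RARS2), beside 8.52% lower and 9.08% higher of all genes. In bulk RNA of this kind, fewer cells of a type and less RNA per cell cannot be told apart.

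With JB170, no synthetase transcript passed, and none had an unadjusted p under 0.05. In the authors' deposited table all members had an adjusted p of 1. Of the genes as a whole, 0.00746% were called lower and 0.0224% higher at the adjusted threshold, and 1.63% and 1.39% at an unadjusted p under 0.05, so few genes of any kind were called in this comparison. The smallest unadjusted p of a member was 0.0555 in the authors' deposited table, for YARS2, the mitochondrial tyrosyl enzyme, at a log2 fold change of 0.32 (interval -0.01 to 0.65). The 3 transcripts called with alisertib had -0.09 for MARS (interval -0.24 to 0.07), -0.03 for AARS (interval -0.19 to 0.12) and -0.10 for YARS (interval -0.25 to 0.05) in JB170-treated cells.

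**Figure D1:**
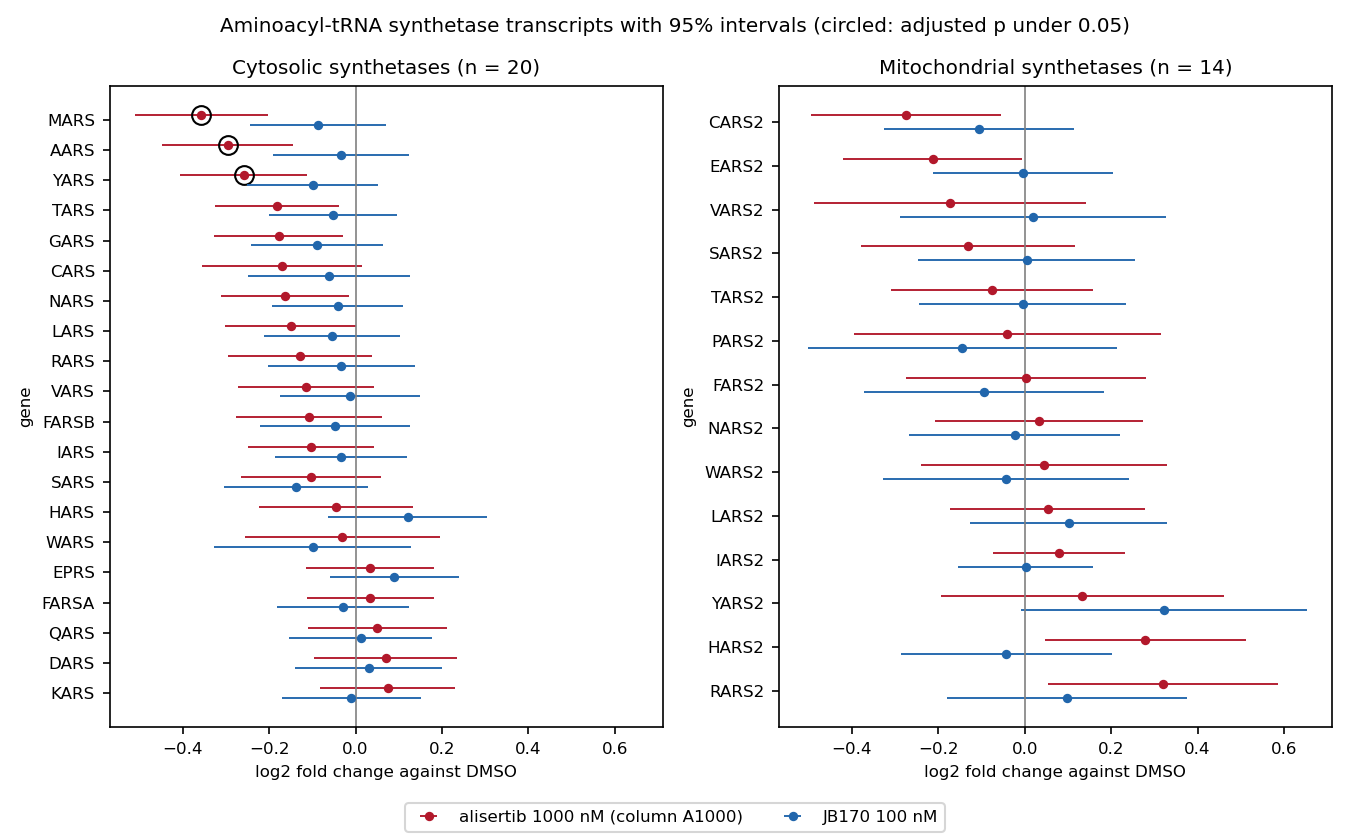
Log2 fold change of each synthetase transcript (horizontal axis) with its 95% interval, for alisertib and JB170 against DMSO, with cytosolic genes in the left panel and mitochondrial genes in the right one. Rings mark the 3 transcripts called with alisertib, MARS, AARS and YARS, while every JB170 interval of these 20 cytosolic genes spans 0.

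The doses of the compounds differed, so the values are set side by side. The difference of alisertib minus JB170 was -0.27 for MARS (interval -0.49 to -0.05), -0.26 for AARS (interval -0.48 to -0.04) and -0.16 for YARS (interval -0.37 to 0.05). After Benjamini-Hochberg adjustment over all 13410 genes, 0 of 34 members were called lower with alisertib than with JB170, beside 0.157% of all genes, and the adjusted p, from a two-sided normal test of the implied errors, was 0.752 for MARS and 0.799 for AARS. That version leaves the shared DMSO libraries in the error, which makes it too large. With them taken off, AARS and MARS were called lower by the same test, beside 1.42% of all genes. The p adjusted over all genes was then 0.0318 for MARS and 0.0387 for AARS.

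The other cytosolic synthetases did not pass the threshold with alisertib. Members of class I, whose catalytic domain has the Rossmann fold, are given first. CARS, the cysteinyl enzyme, had a log2 fold change of -0.17 with alisertib and -0.06 with JB170. LARS, the leucyl enzyme, which also senses leucine for the growth kinase mTORC1, had -0.15 with alisertib and -0.05 with JB170. RARS, the arginyl enzyme, had -0.13 with alisertib and -0.03 with JB170. VARS, the valyl enzyme, had -0.11 with alisertib and -0.01 with JB170. IARS, the isoleucyl enzyme, had -0.10 with alisertib and -0.03 with JB170. In the inferred direction, these transcripts all lay below 0 in both treatments, within intervals that spanned 0. With the JB170 signs turned, they would all lie above 0 with JB170. WARS, the tryptophanyl enzyme and a known interferon-responsive gene, had -0.03 with alisertib and -0.10 with JB170. EPRS had 0.03 with alisertib and 0.09 with JB170, and QARS, the glutaminyl enzyme, had 0.05 with alisertib and 0.01 with JB170. EPRS was counted in class I by its glutamyl part and not by its prolyl part. With MARS and YARS, 8 of these 10 class I transcripts lay below 0 with alisertib, at a median of -0.12.

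Among class II, whose catalytic domain has a different fold, TARS, the threonyl enzyme, had -0.18 with alisertib (adjusted p = 0.142 in the authors' deposited table) and -0.05 with JB170. GARS, the glycyl enzyme, had -0.18 with alisertib (adjusted p = 0.183 in the authors' deposited table) and -0.09 with JB170. NARS, the asparaginyl enzyme, had -0.16 with alisertib and -0.04 with JB170. FARSB, the beta subunit of the phenylalanyl enzyme, had -0.11 with alisertib and -0.05 with JB170, while FARSA, its alpha subunit, had 0.03 with alisertib and -0.03 with JB170. SARS, the seryl enzyme, had -0.10 with alisertib and -0.14 with JB170. HARS, the histidyl enzyme, had -0.05 with alisertib and 0.12 with JB170. DARS, the aspartyl enzyme, had 0.07 with alisertib and 0.03 with JB170, and KARS, the lysyl enzyme, had 0.07 with alisertib and -0.01 with JB170. With AARS, 7 of these 10 class II transcripts lay below 0 with alisertib, at a median of -0.11. In the column MK the classes lay further apart, with 9 of 10 class I transcripts below 0 at a median of -0.14, and 5 of 10 class II transcripts at a median of -0.00.

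Taken as a whole, 15 of 20 cytosolic transcripts lay below 0 with alisertib, at a median of -0.11, against 6 of 14 mitochondrial transcripts at a median of 0.02. Over all genes 48.8% lay below 0, and the median was 0.01. With JB170, 16 of 20 cytosolic transcripts lay below 0 at a median of -0.04, and 8 of 14 mitochondrial ones at a median of -0.0045. Were the JB170 column to run the other way, 4 of 20 cytosolic and 6 of 14 mitochondrial transcripts would lie below 0. In the column A100 the counts below 0 were 14 of 20 cytosolic, at a median of -0.06, and 8 of 14 mitochondrial, at a median of -0.03. In the column MK they were 14 of 20 cytosolic, at a median of -0.06, and 5 of 14 mitochondrial, at a median of 0.05. The comparisons share their DMSO libraries, so a like sign in several of them is no repeat of a result.

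**Figure D2:**
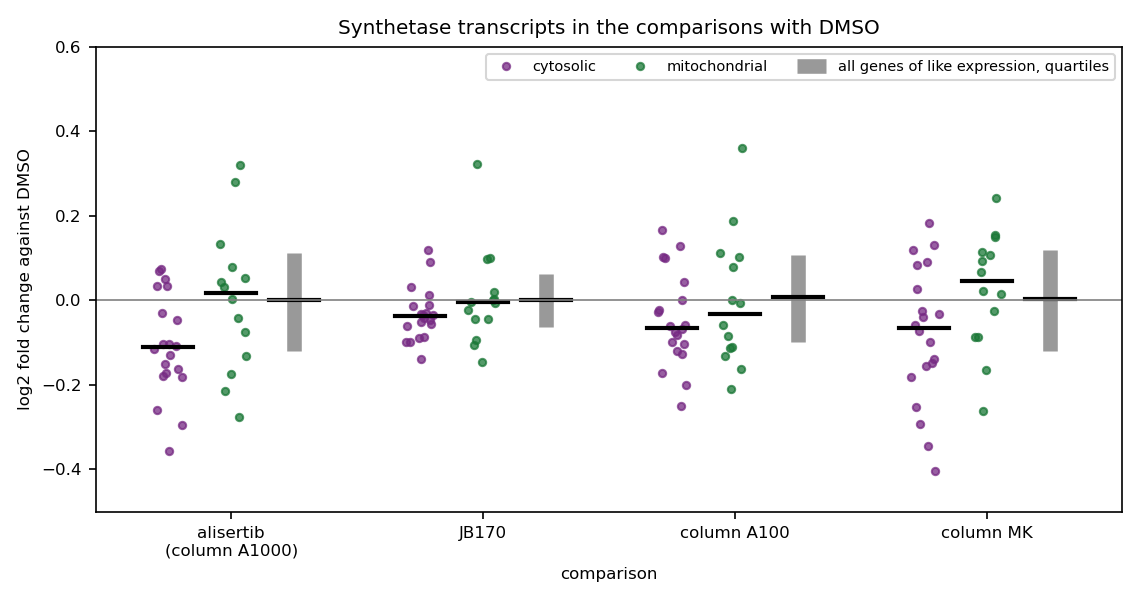
Log2 fold change against DMSO (vertical axis) of the 20 cytosolic and 14 mitochondrial synthetase transcripts in each of the 4 comparisons, with black lines at the medians and grey bars for the quartiles of all genes in the members' range of mean log2 CPM. The cytosolic median is -0.11 with alisertib and -0.04 with JB170, and the mitochondrial medians lie between -0.03 and 0.05.

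In the unlabelled columns no member passed either. In the column A100, 0 of 34 were called, beside 0.537% of all genes lower and 0.761% higher. At an unadjusted p under 0.05, MARS (-0.25), AARS (-0.20) and YARS (-0.17) were lower there and KARS (0.17) and YARS2 (0.36) were higher, beside 5.3% lower and 6.34% higher of all genes. In the column MK, 0 of 34 were called, beside 0.149% of all genes lower and 0.321% higher. At an unadjusted p under 0.05, MARS (-0.40), AARS (-0.35) and LARS (-0.25) were lower there and none was higher, beside 4.59% lower and 4.06% higher of all genes. MARS thus had the lowest value of the 34 members in the columns A1000, A100 and MK, which share DMSO.

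Of the cytosolic transcripts, 12 belong to genes known as ATF4 targets, a division taken from general knowledge of these genes and not from the files. The division was made with earlier results of these data known. With alisertib 11 of these 12 lay below 0, at a median of -0.17, and they include the 3 that fell. Of the 8 not known as targets, 4 lay below 0, at a median of -0.01, and none was called. With JB170 the known targets had 11 of 12 below 0 at a median of -0.06, and the others 5 of 8 at a median of -0.01; with the JB170 signs turned these counts would be 1 of 12 and 3 of 8. In the column A100 the known targets had 9 of 12 below 0 at a median of -0.08, and the others 5 of 8 at a median of -0.04. In the column MK the known targets had 12 of 12 below 0 at a median of -0.14, and the others 2 of 8 at a median of 0.09. A second division from general knowledge, by place in the multisynthetase complex, gave 4 of 8 complex members below 0 with alisertib at a median of -0.04, and 11 of 12 enzymes outside it at a median of -0.14. The divisions overlap, since 8 of the 12 known targets lie outside the complex (EPRS, IARS, LARS and MARS lie in it), and they cannot be told apart on these genes.

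The promoters were read for the C/EBP-ATF response element, because the transcripts that fell belong to known ATF4 targets. The element was searched as TGATGNAA on both strands, in windows of 300 bases that run from 250 before to 50 after each RefSeq start, build GRCh38.p14. Windows of 29 of the 34 members were read; those of DARS, LARS, VARS, VARS2 and YARS were not used here. The element was found in 6 of 16 cytosolic windows (37.5%), in 1 of 13 mitochondrial windows (7.69%) and in 3.62% of the 35116 windows of all genes. Those 35116 windows were not limited to the 13410 genes examined, so they are not a background matched for expression. The 30 bases around each cytosolic match are shown 5′ to 3′ along the gene, with the element in capitals, since the same 8 letters recur at different distances from the start.

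AARS (chr16:70289675-70289704, minus strand): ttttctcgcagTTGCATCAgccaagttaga
CARS (chr11:3057407-3057436, minus strand): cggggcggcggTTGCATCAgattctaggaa
IARS (chr9:92293692-92293721, minus strand): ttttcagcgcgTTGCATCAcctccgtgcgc
MARS (chr12:57488053-57488082, plus strand): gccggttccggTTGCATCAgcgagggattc
NARS (chr18:57621804-57621833, minus strand): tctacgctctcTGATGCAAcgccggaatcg
TARS (chr5:33440956-33440985, plus strand): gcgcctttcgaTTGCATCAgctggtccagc

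On the strand of the gene, AARS, CARS, IARS, MARS and TARS read the same 8 capital letters, and NARS reads their reverse complement. The match began 2 bases before the start in CARS, 4 in MARS and 13 in IARS, but 187 bases before it in AARS. In TARS and NARS it lay just inside the transcribed part. The only mitochondrial match was in YARS2, 197 bases before the start. A match is a run of letters, and binding was not measured. The region upstream of AARS and the start region of MARS are shown at greater length, since both transcripts fell with alisertib, again with the element in capitals.

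AARS upstream (chr16:70289507-70289756, minus strand): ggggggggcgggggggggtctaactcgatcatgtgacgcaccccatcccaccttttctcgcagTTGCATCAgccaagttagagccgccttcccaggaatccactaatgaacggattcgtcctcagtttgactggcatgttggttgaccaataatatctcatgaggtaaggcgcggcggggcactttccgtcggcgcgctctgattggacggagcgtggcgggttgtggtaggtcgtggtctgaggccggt
MARS start region (chr12:57487918-57488077, plus strand): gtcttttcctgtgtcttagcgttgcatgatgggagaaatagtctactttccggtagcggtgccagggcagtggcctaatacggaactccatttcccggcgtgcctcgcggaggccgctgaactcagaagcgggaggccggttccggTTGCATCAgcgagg

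With alisertib, the 6 cytosolic transcripts with the element had a median log2 fold change of -0.18, with 6 of 6 below 0 and a range of -0.36 to -0.10. The 10 with a window and no match had a median of -0.04, with 6 of 10 below 0 and a range of -0.18 to 0.07. With JB170, in the inferred direction, the medians were -0.05 with the element and -0.03 without it. In the column A100 they were -0.09 with and -0.01 without the element, and in the column MK -0.11 with and 0.00 without it. GARS, at -0.18 with alisertib, had no match, so the ranges overlapped. YARS, which fell with alisertib, and DARS, LARS and VARS had no window read and are in neither group. All 6 matches were in known ATF4 targets, of which 10 had a window. That list of targets came from general knowledge, with earlier results known, so this overlap was not a test.

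**Figure D3:**
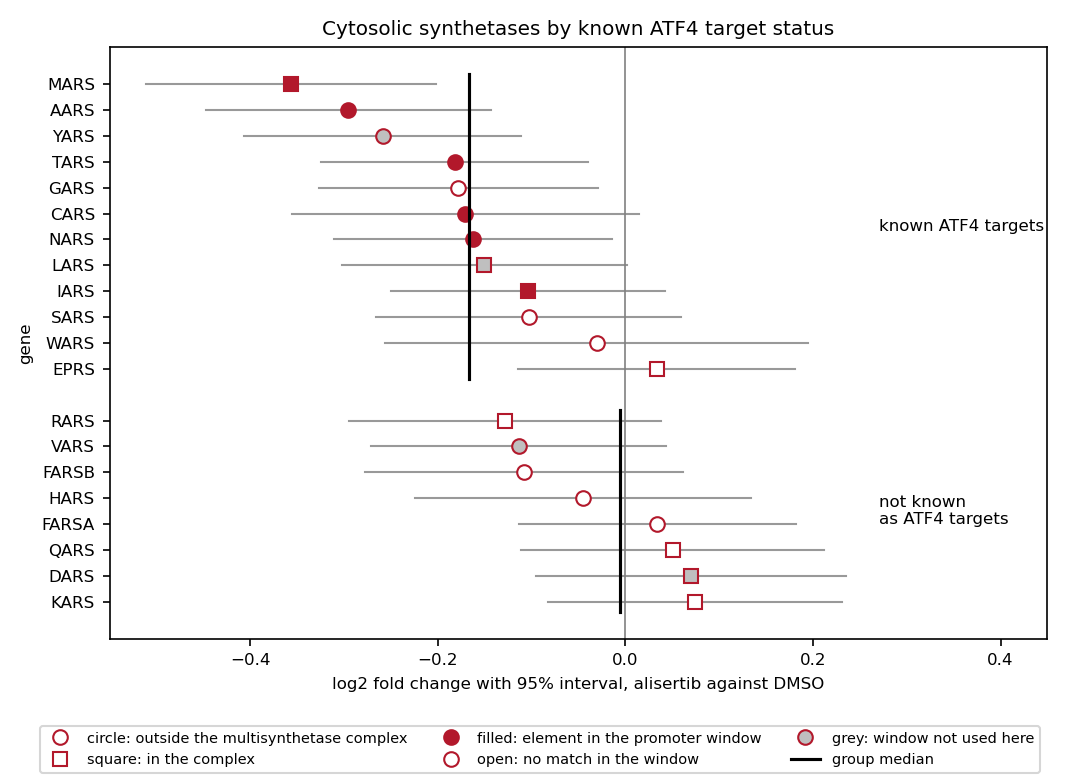
Log2 fold change with its 95% interval for alisertib against DMSO (horizontal axis) of the 20 cytosolic synthetases (rows), split into known ATF4 targets and others, with black lines at the group medians of -0.17 and -0.01. Filled points mark a C/EBP-ATF element in the promoter window, grey points a window not used here, and squares a member of the multisynthetase complex; the 6 filled points all lie below 0.

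Other elements were read in the same windows and on both strands. The E-box CACGTG, bound by MYC and MAX, was in 1 of 16 cytosolic windows (IARS), in 2 of 13 mitochondrial windows (CARS2 and EARS2) and in 7.26% of all windows. The element GCGCANGCG of NRF1, a factor for nuclear genes of mitochondrial function, was in 3 of 16 cytosolic and 2 of 13 mitochondrial windows and in 7.52% of all windows. The ETS element CCGGAAG was in 8 of 16 cytosolic and 5 of 13 mitochondrial windows and in 10.3% of all windows. HARS and HARS2 share a promoter, and their starts in RefSeq lie 84 bases apart on opposite strands. Those bases are shown because the genes start at their opposite ends, with the ETS elements in capitals.

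HARS to HARS2 (chr5:140691371-140691454, plus strand): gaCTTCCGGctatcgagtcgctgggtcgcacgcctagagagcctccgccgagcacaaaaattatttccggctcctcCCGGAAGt

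The mitochondrial synthetases held the highest values with alisertib, but none passed the threshold. RARS2, the mitochondrial arginyl enzyme, had a log2 fold change of 0.32 (interval 0.05 to 0.59, adjusted p = 0.178 in the authors' deposited table) with alisertib and 0.10 with JB170. HARS2, the mitochondrial histidyl enzyme, had 0.28 (interval 0.05 to 0.51, adjusted p = 0.181 in the authors' deposited table) with alisertib and -0.04 with JB170. CARS2, the mitochondrial cysteinyl enzyme, had -0.28 (interval -0.50 to -0.06, adjusted p = 0.152 in the authors' deposited table) with alisertib and -0.11 with JB170. EARS2, the mitochondrial glutamyl enzyme, had -0.21 (interval -0.42 to -0.01) with alisertib and -0.00 with JB170. YARS2 had 0.13 (interval -0.19 to 0.46) with alisertib, beside its 0.32 with JB170. The other 9 mitochondrial transcripts ranged between -0.17 for VARS2 and 0.08 for IARS2 with alisertib, and between -0.14 for PARS2 and 0.10 for LARS2 with JB170.

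Cytosolic and mitochondrial enzymes of the same amino acid were paired, with EPRS and FARS2 used in 2 pairs each. Of the 15 pairs, the cytosolic transcript had the lower log2 fold change in 9 with alisertib, 9 with JB170, 6 in the column A100 and 11 in the column MK. The median difference of cytosolic minus mitochondrial was -0.11 with alisertib, -0.03 with JB170, 0.04 in the column A100 and -0.07 in the column MK. With the JB170 signs turned, the cytosolic transcript would be the lower one in 6 pairs there, at a median difference of 0.03. With alisertib the widest gaps were -0.45 for arginine (RARS and RARS2), -0.39 for tyrosine (YARS and YARS2) and -0.32 for histidine (HARS and HARS2). For glutamate the gap ran the other way, at 0.25 (EPRS and EARS2). The pairs therefore did not show 1 direction.

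**Figure D4:**
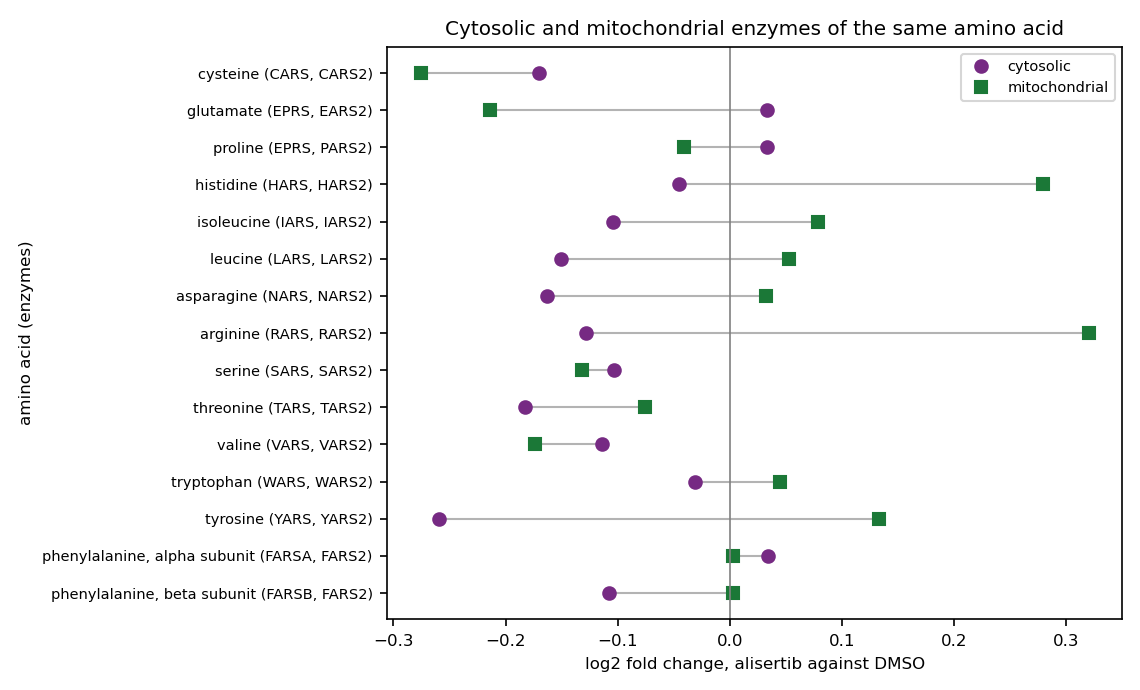
Log2 fold change for alisertib against DMSO (horizontal axis) of the cytosolic and the mitochondrial enzyme of each amino acid (rows, 15 pairs), joined by a line. The cytosolic transcript is the lower one in 9 of the 15 pairs, with the widest gap for arginine.

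Some synthetase genes share exons with a neighbour, and the use of strand in counting is not given in the sources used here. Reads in the shared bases therefore cannot be assigned to 1 gene of such a pair. MARS (GENCODE 29 on GRCh38, chr12:57475445-57517569, plus strand) shares 62 exon bases with DDIT3 on the other strand, which had a mean log2 CPM of 1.07 and a log2 fold change of -0.26 with alisertib (adjusted p = 0.990 in the authors' deposited table). YARS (chr1:32775237-32818153, minus strand) shares 248 exon bases with S100PBP on the other strand, which had -0.00 with alisertib. The shared bases make up 2.13% of the exon bases of MARS and 7.66% of those of YARS. AARS lies at chr16:70252295-70289543, minus strand, and shares no exon with another annotated gene. HARS and HARS2 share 402 exon bases on opposite strands, so the gap between them is uncertain. EARS2 shares 370 bases with UBFD1 and WARS 272 with WDR25. The SARS2 identifier had 16 entries in the table with the same values, 8 of them under the symbol SARS2, and 67.4% of its exon bases lie in another annotated gene, so its value is uncertain too.

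Around the enzymes, the scaffolds of the multisynthetase complex and the tRNA exporter gave further calls with alisertib. Of all genes, 2.83% were called lower and 3.09% higher in that comparison. Of the 3 scaffolds, AIMP2 fell, with a log2 fold change of -0.40 and, in the authors' deposited table, an adjusted p of 0.0404. EEF1E1 also fell, with -0.32 and, in the authors' deposited table, an adjusted p of 0.0396, while AIMP1 had -0.08. With JB170 the scaffolds had -0.02 for AIMP2, -0.00 for EEF1E1 and -0.00 for AIMP1. Of 10 genes of tRNA export and end processing, XPOT, the exportin of transfer RNA, fell with alisertib, with a log2 fold change of -0.27 and, in the authors' deposited table, an adjusted p of 0.0143. It had -0.01 with JB170. No other gene of that list passed. Of 8 elongation factors, EEF2, which moves the ribosome along the messenger, rose with alisertib, with a log2 fold change of 0.23 and, in the authors' deposited table, an adjusted p of 0.0267. It had 0.04 with JB170.

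None of 3 genes of the mitochondrial amidotransferase and formylation passed; MTFMT, which formylates methionyl-tRNA, had -0.31 and QRSL1, an amidotransferase subunit, had -0.02 with alisertib. None of 4 genes of selenocysteine charging and proofreading passed; SEPSECS had 0.19 and PSTK, the kinase that precedes it, had 0.16 with alisertib. In these lists of scaffolds, tRNA export, elongation, amidotransferase and selenocysteine genes, no gene was called with JB170 or in the columns A100 and MK. The shares of all genes called lower and higher were 0.00746% and 0.0224% with JB170. They were 0.537% and 0.761% in the column A100 and 0.149% and 0.321% in the column MK.

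The amino acid response genes of ATF4 other than synthetases gave larger values. Of 27 in the table, 11 fell and none rose with alisertib, and 16 did not pass, beside 2.83% lower and 3.09% higher of all genes. Their median was -0.26, with 24 of 27 below 0. ASNS, asparagine synthetase, had a log2 fold change of -0.71 with alisertib, -0.33 with JB170, -0.66 in the column A100 and -0.59 in the column MK. SLC7A5, an importer of large neutral amino acids, had -0.49 with alisertib, -0.07 with JB170, -0.14 in the column A100 and -0.30 in the column MK. DDIT4, an inhibitor of mTORC1 signalling, had -0.76 with alisertib, -0.39 with JB170, -0.50 in the column A100 and -0.42 in the column MK. ATF4 itself had -0.50 with alisertib, -0.19 with JB170, -0.40 in the column A100 and -0.33 in the column MK.

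All 4 of these genes fell with alisertib, ASNS, DDIT4 and ATF4 also fell in the column A100, and ASNS fell in the column MK. With JB170 0 genes of this list were called, beside 0.00746% of all genes lower and 0.0224% higher. In the column A100 7 were called lower, beside 0.537% of all genes, and in the column MK 2, beside 0.149%. With JB170, 22 of 27 lay below 0 at a median of -0.10, and 6 had an unadjusted p under 0.05, all lower, beside 1.63% of all genes. With the JB170 signs turned, 5 of 27 would lie below 0 and those 6 would be higher. With alisertib the synthetase transcripts known as ATF4 targets thus had a median below 0, like this list. That median, -0.17, was nearer to 0 than the -0.26 of the list. By sign, 1 of those 12 transcripts and 3 of these 27 genes lay above 0. Whether these values belong to 1 response was not tested.

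**Figure D5:**
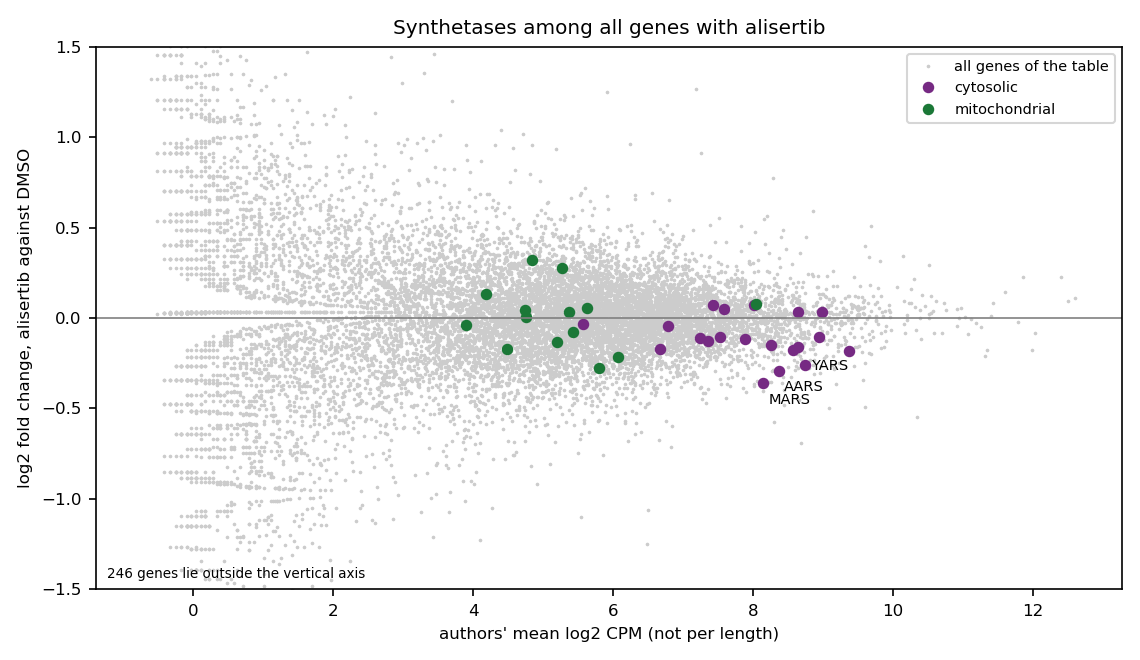
Log2 fold change for alisertib against DMSO (vertical axis) against the authors' mean log2 CPM (horizontal axis, not corrected for length) of all 13410 genes, with the 20 cytosolic and 14 mitochondrial synthetases in colour; 246 genes lie outside the vertical axis. MARS, AARS and YARS lie at a mean log2 CPM between 8.15 and 8.74, to the right of most mitochondrial members.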

How the data were processed

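RNA was measured in 9 libraries, purified on miRNeasy columns and made into directional poly(A) libraries with NEBNext kits, as the labels' protocols state. Per the submitters' processing notes, the tools were FastQC, Bowtie2 2.3.2 and TopHat2 2.1.1, with the build hg19. How reads were counted, normalized, filtered and tested: not given in the sources used here.

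Values deposited by the authors were log2 fold changes, a mean log2 CPM and, for each comparison, a p-value, raw and adjusted. The libraries behind the mean are not named. A gene was called at the authors' adjusted p under 0.05; no test against DMSO was fitted here. The adjusted p-values fit a Benjamini-Hochberg adjustment over 16812 tests, of which 3402 were not analysed here; 5 identifiers repeated over 80 entries were kept once each.

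The headers name DMSO first, yet as deposited the JB170 column had Pearson's r of -0.49, -0.53 and -0.45 across genes with A1000, A100 and MK, where the other pairs had 0.49 to 0.53. The median log2 implied error of positive minus that of negative values was 0.40 in A1000, 0.30 in A100, 0.23 in MK and 0.01 in JB170. It was taken over 263 to 394 genes of large change and low mean log2 CPM. The correlations bear only on the sign of JB170 relative to the other columns. How the error difference relates to direction was not tested, and no gene of known direction was used. With these limits, the signs of A1000, A100 and MK were turned, and JB170 was left. This direction is inferred.

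The standard error of a gene was its log2 fold change over the z of its p-value for an absolute z of 1 or more; for the rest it was the median of genes of like expression, in 60 bins. The difference alisertib minus JB170 was tested with it and adjusted over 13410 genes, after a check on simulated data. The differences planted in that check were larger than any of the members'. It therefore does not show whether differences of the members' size would be called. Places and exon overlaps are from GENCODE 29 on GRCh38, and promoters from RefSeq, GRCh38.p14, matched by symbol. Cytosolic members, and mitochondrial ones with an unadjusted p under 0.05 in a comparison, are named with their values; from each other list, up to 6 called genes, or else the 4 with the smallest p, or the 2 with the smallest p where none was called; 1 gene so chosen is not reported here. Members and lists were chosen with earlier results of these data known. Scripts used Python 3.11.15, pandas 2.3.3, numpy 2.4.6, SciPy 1.17.1, statsmodels 0.14.6 and matplotlib 3.10.9.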

Additional observations from a re-analysis of the deposited data

How the results depend on the processing

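Of 64 alternatives, 59 left the direction of a median, the call of a gene or nearly the same count as reported. The choices were other thresholds on the adjusted p, a floor on mean log2 CPM, adjustment over the genes of the table alone, means for medians, centring on all genes, GARS and KARS left out and, chosen after seeing the data, SARS2 and HARS2 left out. Some of these could not change a result. The floor of 3 lay below the lowest member (PARS2, 3.89), so it left every median as it was. A stricter threshold could not change a count of 0. GARS and KARS lay on opposite sides of the cytosolic median in every comparison, so leaving both out could not move it. The same held for SARS2 and HARS2 around the mitochondrial median with alisertib. The mean of the mitochondrial members with JB170 was 0.0058, where the median was -0.0045. At an adjusted p under 0.01, 2 members, MARS and AARS, were called with alisertib in place of 3. The count of members lower with alisertib than with JB170 was 0, but 2 (AARS and MARS) with the shared DMSO libraries taken off the error. It was also 2 when the JB170 signs were turned like the rest, namely MARS (-0.44) and YARS (-0.36). Turning them, an alternative for the medians chosen after seeing the data, moved the JB170 medians to 0.038 (cytosolic) and 0.0045 (mitochondrial), by its construction. No paired analysis was possible because the table holds no values per library; for the same reason, leaving out a replicate was not run and no library could be examined. The depth is unknown, and the wider errors of the mitochondrial members limit what could be called there.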

Other observations

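Among 12 genes of RNA polymerase III and its factors, which transcribe transfer RNA genes, none passed with alisertib, by the authors' adjusted p. Their median log2 fold change was -0.14, with 10 of 12 below 0, beside a median of 0.01 over all genes, and at an unadjusted p under 0.05, 5 were lower and 1 was higher, beside 8.52% lower and 9.08% higher of all genes. POLR3B, a catalytic subunit, had -0.51 (adjusted p = 0.0823 in the authors' deposited table). With JB170 the median was 0.00, with 6 of 12 below 0. In the column A100 it was -0.01, and in the column MK -0.04.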
